A study of Mus musculus with 32 samples.

Results

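Glycolysis and the tricarboxylic acid (TCA) cycle were followed here through 36 enzyme and transporter genes in sorted intestinal stem cells of mice. The genes were picked by symbol from a table of 54418 gene identifiers. No measured value entered the rule, but earlier results of these data were known when the list was chosen. They comprise 16 genes of glycolysis with glucose uptake and lactate export, 7 genes of pyruvate entry into mitochondria, and 13 genes of the TCA cycle. The series concerns fatty acid oxidation in stem cells of mice on a high-fat diet, and the receptors PPARα and PPARδ. Crypt cells were stained for an epithelial surface marker and a dead-cell dye, and GFP-high cells were collected by flow cytometry. Their polyadenylated RNA was counted by 3' digital gene expression, in which reads come from the 3' end of each transcript. The 32 libraries form 8 groups of 4. WT mice, PparD mice (labelled Ppard-fl/fl), PparA mice (Ppara-null) and PparDA mice (both labels) were each given a control or a high-fat diet. All carry the strain label C57BL6. The sources used here do not give how the floxed Ppard allele was recombined, which promoter drives GFP, or the mice's age and time on diet. Nothing states that a group's 4 libraries came from separate mice, so p-values measure only the spread between these samples.

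Glycolysis splits glucose into pyruvate in the cytosol, and lactate dehydrogenase turns pyruvate into lactate. Pyruvate that enters the mitochondrion through its carrier is made into acetyl-CoA by the pyruvate dehydrogenase complex, and the TCA cycle oxidizes acetyl-CoA from pyruvate and from fatty acids alike. Stem cells at the crypt base are known to use fatty acid oxidation. PPARα and PPARδ are nuclear receptors that fatty acids activate, and their known targets lie mainly in fatty acid oxidation.

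Library totals ran from 612672 to 724155 counts, a ratio of 1.18, with counts for 11683 to 12212 genes each. Ppara and Ppard had only 0 to 5 and 0 to 7 counts per library, which cannot check the genotypes. Markers of intestinal stem cells (9 of 10 passed the filter on low counts) summed to 10400 to 12300 CPM as group means, where CPM is counts per 1e+06 counts in tested genes after TMM scaling. Lymphocyte and red blood cell markers summed to at most 14.3 and 10.2 CPM in any library, and 0 of them passed the filter. Markers of enterocytes, Paneth cells and goblet cells, the neighbours of stem cells in the crypt and villus, were present throughout, and their sums are given beside the results they move with. In bulk RNA, fewer cells of a type and less RNA per cell cannot be told apart. Library numbers in the table run from 1 to 32 and fall into 4 runs of 8, each with 1 library of every group. In every run the control library of each mutant has the lower number of its pair. In the mutants, place in the run and diet therefore cannot be told apart. Each run also lists WT first, then PparD, PparA and PparDA, so place in the run and genotype cannot be told apart either. Xist, which female cells express, stood at 478.9 to 955.7 CPM in the 16 libraries of runs 1 and 3 and at 0 to 9.976 CPM in runs 2 and 4, while the Y-linked Ddx3y stood at 0 in the former and at 14.65 to 39.91 CPM in the latter. Values from each pair of runs are given beside each called member.

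Of the 36 genes, 29 passed the filter and were tested, 11 of 16 in glycolysis, 5 of 7 in pyruvate entry and 13 of 13 in the TCA cycle. The 7 others had few counts in all 32 libraries together. Slc2a1, the glucose transporter GLUT1, had 67 counts in total and at most 5 in a library. Hk1, a hexokinase, had 11 counts, against 1899 for its isozyme Hk2. The phosphofructokinases Pfkl and Pfkm had 102 and 40 counts, and the third isozyme, Pfkp, had 285 and was tested. Slc16a3, the lactate exporter MCT4, had 4 counts. In pyruvate entry, Dlat, the acetyltransferase subunit of pyruvate dehydrogenase, had 208 counts, and Pcx, the pyruvate carboxylase that makes oxaloacetate, had 22. Counts at the 3' end depend on how well each 3' end is captured, so these totals rank detection and not enzyme amounts.

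No gene of either pathway passed the test for a change with the high-fat diet in any genotype. The count was 0 of 29 tested members at an adjusted p under 0.05 (edgeR quasi-likelihood test, Benjamini-Hochberg adjustment over 5872 genes). This held for the diet effect averaged over the 4 genotypes, where 0.324% of all tested genes were called, and for the effect in WT (0.102%), PparD (0.0851%), PparA (0.136%) and PparDA (0.0341%). DESeq2 also called 0 members in each of these 5 comparisons. At an unadjusted p under 0.05, 1, 3, 0, 2 and 5 of the 29 members were found in these comparisons, where 9.04, 7.66, 4.99, 5.79 and 8.79% of all tested genes were. The median log2 fold change of the 11 glycolysis genes was −0.04 in WT, −0.08 in PparD and −0.12 in PparA, and 0.19 in PparDA, where 9 of 11 were higher on the high-fat diet. For the 13 TCA cycle genes the medians were 0.02, −0.04, −0.05 and 0.07 in the same order. The median over all tested genes lay between −0.00665 and −0.0019 in these 5 comparisons. Within 1 genotype the standard error of a log2 fold change had a median of 0.163 to 0.164 for glycolysis and 0.140 to 0.142 for the TCA cycle.

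**Figure D1:**
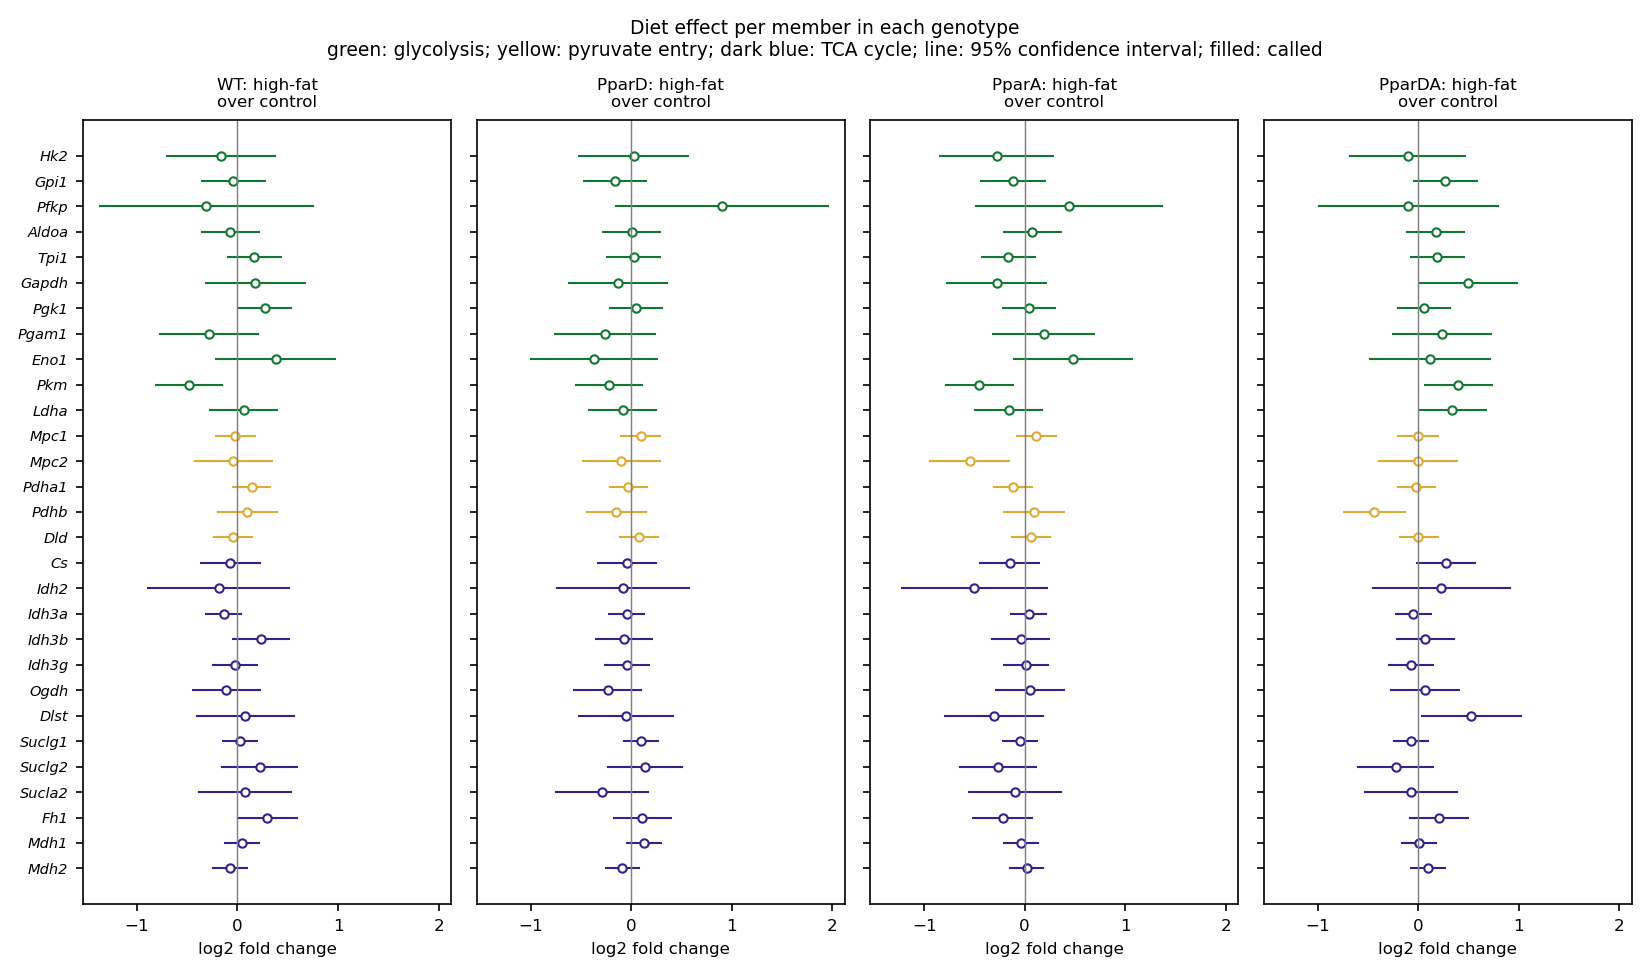
Log2 fold change (x axis) of each of the 29 tested genes (rows) on the high-fat over the control diet, 1 panel per genotype, with 4 libraries per group; lines are 95% confidence intervals. No point is filled, since 0 of 29 genes were called in any panel, and Pkm lies at −0.48 in WT and at 0.40 in PparDA.

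Among glycolysis genes, Pkm had the smallest p for the diet in 4 of the 5 comparisons. Pkm (ENSMUSG00000032294, chromosome 9, 59656368 to 59679375, mm10) encodes pyruvate kinase, the last step of glycolysis; its M1 and M2 forms differ in an internal exon and share the 3' end, so the counts hold both. In WT the control diet gave 338, 328, 395 and 345 CPM and the high-fat diet 247, 296, 200.4 and 265 CPM. All 4 high-fat libraries lay below all 4 control libraries, with a log2 fold change of −0.48 ± 0.16 (SE) and a 95% confidence interval of −0.81 to −0.15 that misses the threshold across all genes (edgeR adjusted p = 0.52). It was −0.71 in runs 1 and 3 and −0.25 in runs 2 and 4. Markers of other epithelial cells moved with the diet in WT. The summed enterocyte markers (11 of 11 tested, 0 at a count of 0 throughout) went from 1630 ± 77.2 CPM (SD, n = 4; 1530 to 1710) to 3110 ± 812 CPM (2140 to 4130), without overlap. Paneth cell markers (9 of 9 tested, 0 at a count of 0 throughout) went from 7480 ± 5750 CPM (4160 to 16100) to 21400 ± 16100 CPM (7350 to 44300), and goblet cell markers (7 of 7 tested, 0 at a count of 0 throughout) from 3610 ± 1350 CPM (1590 to 4450) to 5170 ± 1550 CPM (2860 to 6200), both with overlap. Their part in the Pkm values was not tested. In PparDA the control diet gave 205, 232, 266 and 201 CPM and the high-fat diet 243, 236, 329.5 and 384 CPM. Within each of the 4 runs the high-fat library lay above the control one, but 2 high-fat libraries lay below the highest control library, so the ranges overlapped, at 0.40 ± 0.16 (adjusted p = 0.46). PparD had means of 315 ± 57 and 270 ± 21.9 CPM (SD, n = 4) and PparA of 292 ± 64.3 and 214 ± 26.6 CPM, control diet first. Their log2 fold changes were −0.22 ± 0.16 and −0.45 ± 0.16 (adjusted p = 1 and 0.7).

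The difference between the diet effects in PparDA and in WT was tested directly. For Pkm it was 0.88 ± 0.23 on the log2 scale with a 95% confidence interval of 0.41 to 1.34, at an unadjusted p of 0.00059 that did not pass adjustment over all genes (edgeR adjusted p = 0.44). The difference was 0.98 in runs 1 and 3 and 0.77 in runs 2 and 4. In this comparison edgeR called 0 of 5872 genes and 0 of 29 members (0%), with 5.77% of genes and 2 members at an unadjusted p under 0.05, and DESeq2 called 1 gene, which was no member. The same difference for PparD and for PparA against WT called 3 and 9 genes (0.0511 and 0.153%) and 0 members by either tool. It was found at an unadjusted p under 0.05 for 0 and 1 of the members and for 3.61 and 8.19% of all genes. That member was Fh1, described with the TCA cycle. The comparisons share the WT libraries, and the direct difference is made of the same libraries as the separate effects.

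Pkm was also the 1 member called between PparDA and WT on the control diet, where 1.87% of all tested genes were called (1.23% higher and 0.647% lower). It was lower in PparDA, at a log2 fold change of −0.64 ± 0.16 (95% confidence interval −0.97 to −0.31; edgeR adjusted p = 0.032), and the 4 PparDA libraries at 201 to 266 CPM all lay below the 4 WT libraries at 328 to 395 CPM. The log2 fold change was −0.64 in runs 1 and 3 (adjusted p = 0.39) and −0.62 in runs 2 and 4 (adjusted p = 0.26), each with 2 libraries per group. The call was lost without any 1 of libraries 1, 9, 17 and 26 of WT or libraries 7, 15 and 31 of PparDA, at adjusted p of 0.057 to 0.13. On the high-fat diet the same contrast was 0.24 ± 0.16 (adjusted p = 0.57). On the control diet the summed enterocyte markers were 2530 ± 158 CPM (SD, n = 4; 2320 to 2680) in PparDA and 1530 to 1710 CPM in WT, without overlap. Paneth cell markers were 17300 ± 16700 CPM (3860 to 41700) in PparDA and 4160 to 16100 CPM in WT, and goblet cell markers 5380 ± 1730 CPM (2860 to 6790) and 1590 to 4450 CPM, both with overlap. Their part in the Pkm result was not tested.

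**Figure D2:**
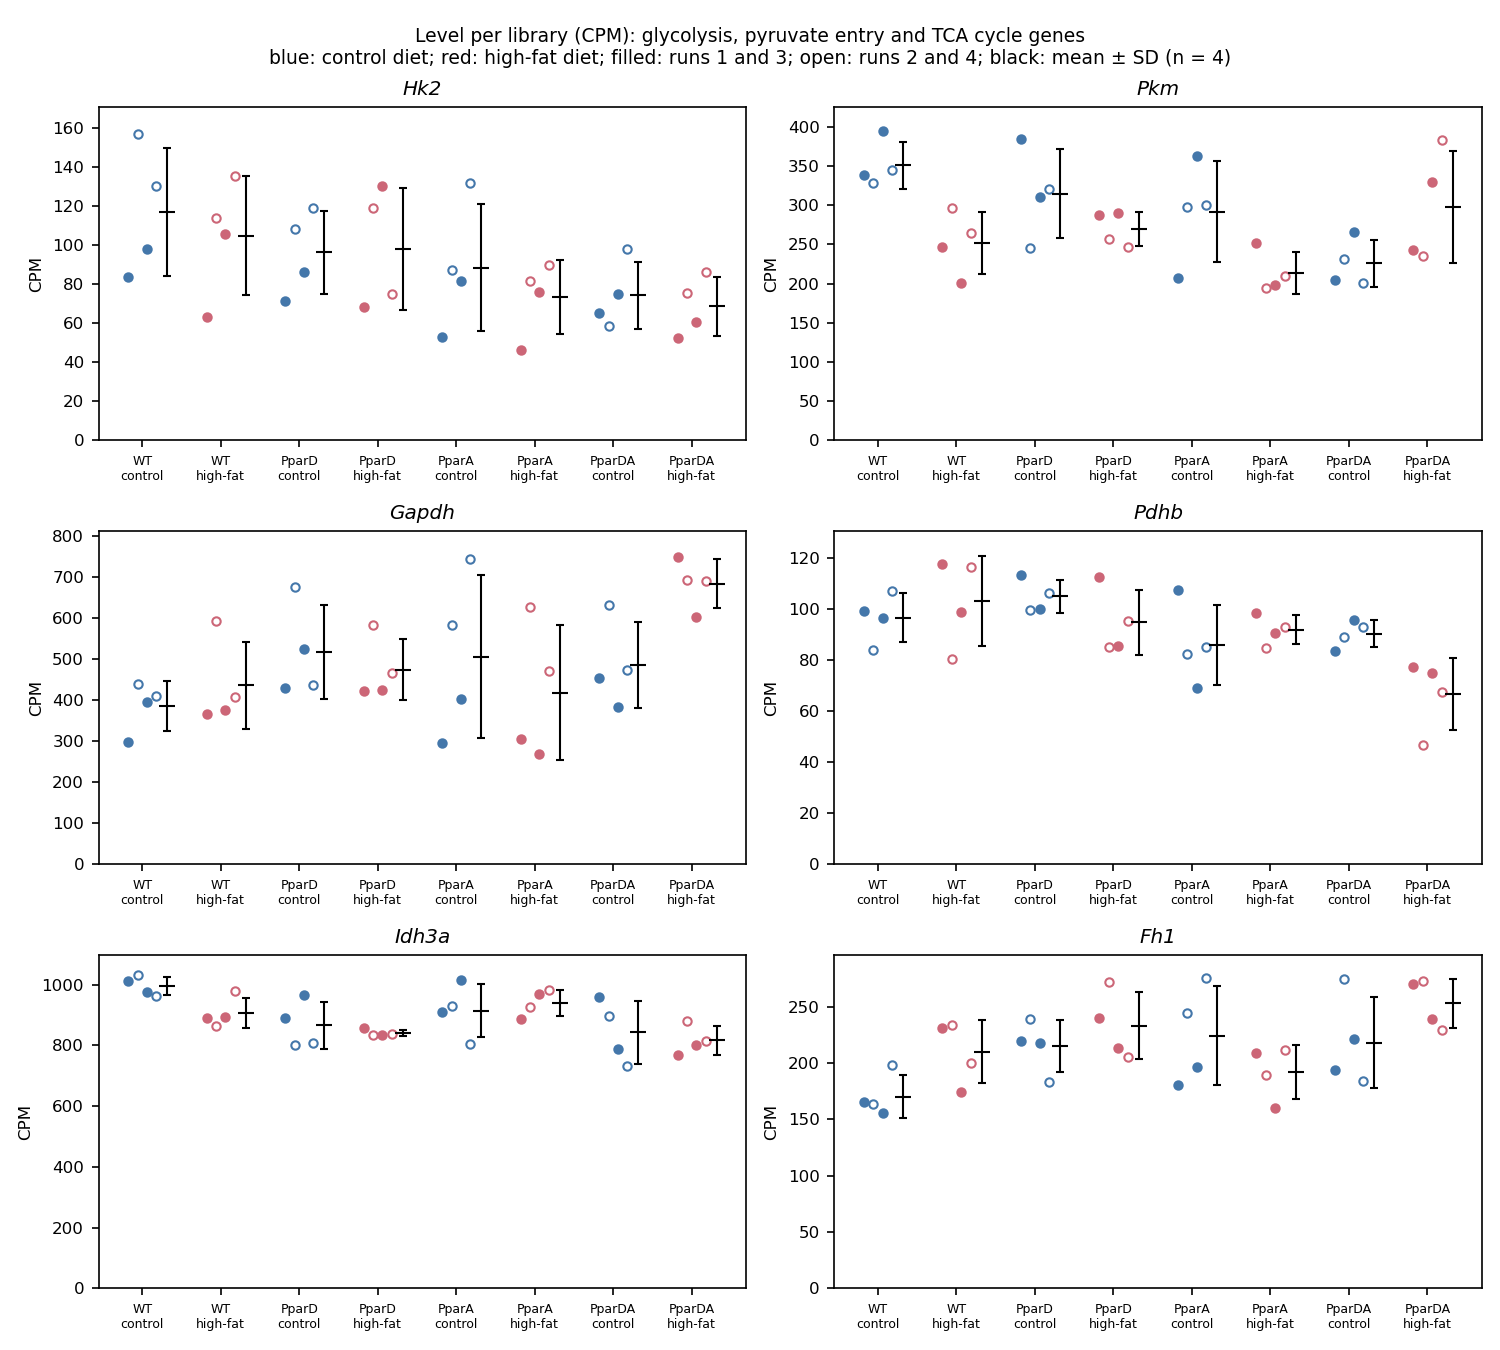
Level in CPM (y axis, from 0) of Hk2, Pkm, Gapdh, Pdhb, Idh3a and Fh1 in each of the 32 libraries, by genotype and diet (x axis), with the mean ± SD of 4 libraries in black. Pkm in PparDA on the control diet, at 201 to 266 CPM, lies below WT on that diet, at 328 to 395 CPM; filled points (runs 1 and 3) tend to lie below open points (runs 2 and 4) for Hk2 and Gapdh.

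Hk2 (ENSMUSG00000000628, chromosome 6, 82725025 to 82774454) encodes hexokinase 2, which phosphorylates glucose on entry to the cell. It was lower in the Ppara-null genotypes, PparA and PparDA, than in WT and PparD when averaged over Ppard genotype and diet. With the control diet first, WT had 83.9, 157, 98 and 131 CPM and 63.3, 114, 106 and 136 CPM, and PparD had 71.5, 109, 86.3 and 119 CPM and 68.2, 119, 131 and 74.8 CPM. PparA had 52.9, 87.3, 81.9 and 132 CPM and 46.3, 81.5, 75.9 and 89.8 CPM, and PparDA had 65.1, 58.8, 75.2 and 98 CPM and 52.6, 75.4, 60.5 and 86.5 CPM. The ranges overlapped, with the highest values in WT and the lowest in PparA. The log2 fold change was −0.45 ± 0.14 (SE; 95% confidence interval −0.73 to −0.18; edgeR adjusted p = 0.035), −0.47 in runs 1 and 3 (adjusted p = 0.27) and −0.43 in runs 2 and 4 (adjusted p = 0.095). Hk2 and Pdhb were the 2 of 29 members called in this contrast, in which 7.58% of all tested genes were called (4.39% higher and 3.18% lower). The Hk2 call was lost without any 1 of 15 libraries (5, 6, 7, 8, 9, 10, 11, 12, 13, 15, 20, 24, 25, 26 and 27), at adjusted p of 0.052 to 0.067. Between PparDA and WT alone the log2 fold change of Hk2 was −0.66 ± 0.27 on the control and −0.60 ± 0.27 on the high-fat diet, neither past the threshold (adjusted p = 0.25 and 0.32). With the run as a block the control-diet value was −0.65 ± 0.18 and passed (adjusted p = 0.042). Enterocyte markers summed to 2530 to 3530 CPM as group means in the Ppara-null groups and to 1620 to 3110 CPM in the others, and single PparA libraries ranged from 1420 to 6350 CPM. Group means of Paneth cell markers were 10200 to 21500 CPM in the Ppara-null groups and 6130 to 21400 CPM in the others, and those of goblet cell markers 3440 to 5380 and 2150 to 5170 CPM. Their part in this result was not tested.

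The RefSeq promoter windows of the 3 called genes are shown because their counts differed between receptor genotypes. Each is the 250 bases before a RefSeq start in GRCm38.p6, read 5' to 3' on the gene's strand, and capitals mark ACGTG, the core of the hypoxia response element, and the GC box GGGCGG on either strand (so also CACGT and CCGCCC).
Pkm, chr9:59656326-59656575, plus strand, the first of 2 starts listed: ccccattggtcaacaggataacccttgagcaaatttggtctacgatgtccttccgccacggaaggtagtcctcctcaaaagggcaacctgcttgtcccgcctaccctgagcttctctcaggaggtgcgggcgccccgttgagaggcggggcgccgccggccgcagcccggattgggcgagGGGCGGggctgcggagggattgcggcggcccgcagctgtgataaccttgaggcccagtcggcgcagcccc
Hk2, chr6:82774455-82774704, minus strand: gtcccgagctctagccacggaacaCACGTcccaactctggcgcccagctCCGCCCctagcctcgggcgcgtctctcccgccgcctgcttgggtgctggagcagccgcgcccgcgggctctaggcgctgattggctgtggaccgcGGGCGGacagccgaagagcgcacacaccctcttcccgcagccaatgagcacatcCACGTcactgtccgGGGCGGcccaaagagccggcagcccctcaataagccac
Pdhb, chr14:8172993-8173242, minus strand: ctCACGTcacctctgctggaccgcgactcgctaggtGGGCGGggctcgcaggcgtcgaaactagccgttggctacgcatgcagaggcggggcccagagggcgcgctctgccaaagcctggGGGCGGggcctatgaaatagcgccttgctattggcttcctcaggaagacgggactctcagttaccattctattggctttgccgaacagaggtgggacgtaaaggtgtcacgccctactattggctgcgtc
The GENCODE starts of Pkm, at 59656368, and of Pdhb, at 8173025, lie inside their windows, which therefore also hold bases that GENCODE lists as transcribed. The ACGTG core occurs 0 times in the Pkm window, 2 times in that of Hk2 and 1 time in that of Pdhb, and 16.6% of all 32851 windows of this length hold it. The GC box occurs 1, 3 and 2 times, and 32.7% of windows hold it. The E-box CACGTG, which contains the ACGTG core, and the direct repeat AGGTCANAGGTCA, a form of PPAR response element, occur in 0 of the 3 windows, against 6.02% and 0.0335% of all windows. A match says only that these letters are present, and no match that they are absent from this window.

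Pfkp, the platelet-type phosphofructokinase, catalyses the committed step of glycolysis. It lay just outside the threshold in the Ppara-null contrast, at 0.75 ± 0.24 (edgeR adjusted p = 0.051). Its level was low, with 2 to 19 counts per library, and averaged 11 and 8.88 CPM in WT, 7.4 and 14 CPM in PparD, 13.7 and 18.5 CPM in PparA, and 18.9 and 17.7 CPM in PparDA (here and below, the control diet first). PparDA on the control diet had 9.29, 24.1, 21.9 and 20.3 CPM against 12.4, 12, 12.4 and 7.34 CPM in WT, with overlapping ranges. The contrast was 0.33 in runs 1 and 3 and 1.1 in runs 2 and 4. DESeq2 called it (adjusted p = 0.044), as did the fit with the run as a block (adjusted p = 0.032).

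Gapdh, glyceraldehyde-3-phosphate dehydrogenase, is the redox step of glycolysis. On the high-fat diet PparDA had 748, 692, 603 and 690.4 CPM and WT had 367, 592, 376 and 408 CPM. All PparDA libraries lay above all WT libraries, yet the log2 fold change of 0.65 ± 0.24 did not pass (edgeR adjusted p = 0.2). With the run as a block in the model it was 0.69 ± 0.17 and passed (adjusted p = 0.023). The 8 group means were 385 and 436 CPM in WT, 517 and 474 CPM in PparD, 506 and 418 CPM in PparA, and 486 and 683 CPM in PparDA, with SDs of 59.9 to 198 CPM. The widest spread was within PparA, whose libraries ran from 269 to 744 CPM over both diets. Within PparDA the diet effect was 0.49 ± 0.24 (adjusted p = 0.56). Averaged over Ppara genotype and diet, the contrast of the Ppard-fl/fl genotypes with the others was 0.30 ± 0.12 (adjusted p = 0.26), with 0.53 in runs 1 and 3 (adjusted p = 0.0077) and 0.13 in runs 2 and 4 (adjusted p = 0.77). With the run as a block it passed, at 0.32 ± 0.09 (adjusted p = 0.037). The difference between the pairs of runs was not tested. Counts of Gapdh can be shared with near-identical copies, and 101 genes share sequence with its 3' end. Of these, 2 had at least 32 counts in total, Gm7336 and 3000002C10Rik. They held 1.95 and 0.557% of the counts when each was pooled with Gapdh.

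No gene of the middle steps of glycolysis was called. Gpi1, which converts glucose 6-phosphate to fructose 6-phosphate, averaged 188 and 182 CPM in WT, 221 and 198 CPM in PparD, 201 and 186 CPM in PparA, and 192 and 231 CPM in PparDA. PparDA against WT on the high-fat diet was 0.34 ± 0.15 (edgeR adjusted p = 0.32). Aldoa, the aldolase that cleaves fructose 1,6-bisphosphate, averaged 252 and 239 CPM in WT, 247 and 248 CPM in PparD, 250 and 264 CPM in PparA, and 289 and 325 CPM in PparDA. On the high-fat diet PparDA had 359, 279, 279 and 385 CPM against 247, 231, 235 and 245 CPM in WT. The PparDA libraries all lay above the WT libraries, at 0.44 ± 0.14 (adjusted p = 0.11), and the Ppara-null contrast was 0.19 ± 0.07 (adjusted p = 0.11). Tpi1, triosephosphate isomerase, averaged 364 and 409 CPM in WT, 428 and 435 CPM in PparD, 425 and 380 CPM in PparA, and 423 and 483 CPM in PparDA, with its lowest mean in WT on the control diet and its highest in PparDA on the high-fat diet. Its contrast for Ppard-fl/fl was 0.16 ± 0.06 (adjusted p = 0.25). Pgk1, phosphoglycerate kinase, averaged 219 and 265 CPM in WT, 252 and 260 CPM in PparD, 228 and 234 CPM in PparA, and 234 and 244 CPM in PparDA. Its diet effect in WT was 0.27 ± 0.13 (adjusted p = 0.64). Pgam1, phosphoglycerate mutase, averaged 46.4 and 38 CPM in WT, 41.5 and 34.6 CPM in PparD, 37.6 and 43 CPM in PparA, and 41.4 and 49 CPM in PparDA, with 12 to 39 counts per library and no comparison at an unadjusted p under 0.05. None of these 5 genes passed the threshold in any of the 12 comparisons.

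Ldha, the lactate dehydrogenase subunit that favours lactate formation, averaged 1340 and 1400 CPM in WT, 1420 and 1340 CPM in PparD, 1410 and 1270 CPM in PparA, and 1240 and 1570 CPM in PparDA. PparDA libraries of the control diet had 1157, 1632, 1015 and 1157 CPM, and those of the high-fat diet 1480, 1829, 1292 and 1669 CPM. The high-fat values tended to be higher but the ranges overlapped, at 0.34 ± 0.16 (edgeR adjusted p = 0.56). The sum of the 11 tested glycolysis genes, to which Ldha gave the most counts, was 4040 ± 279 CPM (SD, n = 4) in PparDA on the high-fat diet and 3290 ± 444 CPM on the control diet. Control diet first, it was 3330 ± 241 and 3410 ± 410 CPM in WT, 3600 ± 292 and 3420 ± 243 CPM in PparD, and 3520 ± 660 and 3190 ± 562 CPM in PparA. The 4 PparDA high-fat libraries, at 3670 to 4260 CPM, lay above all WT control libraries, at 3130 to 3630 CPM, and overlapped the other groups.

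**Figure D3:**
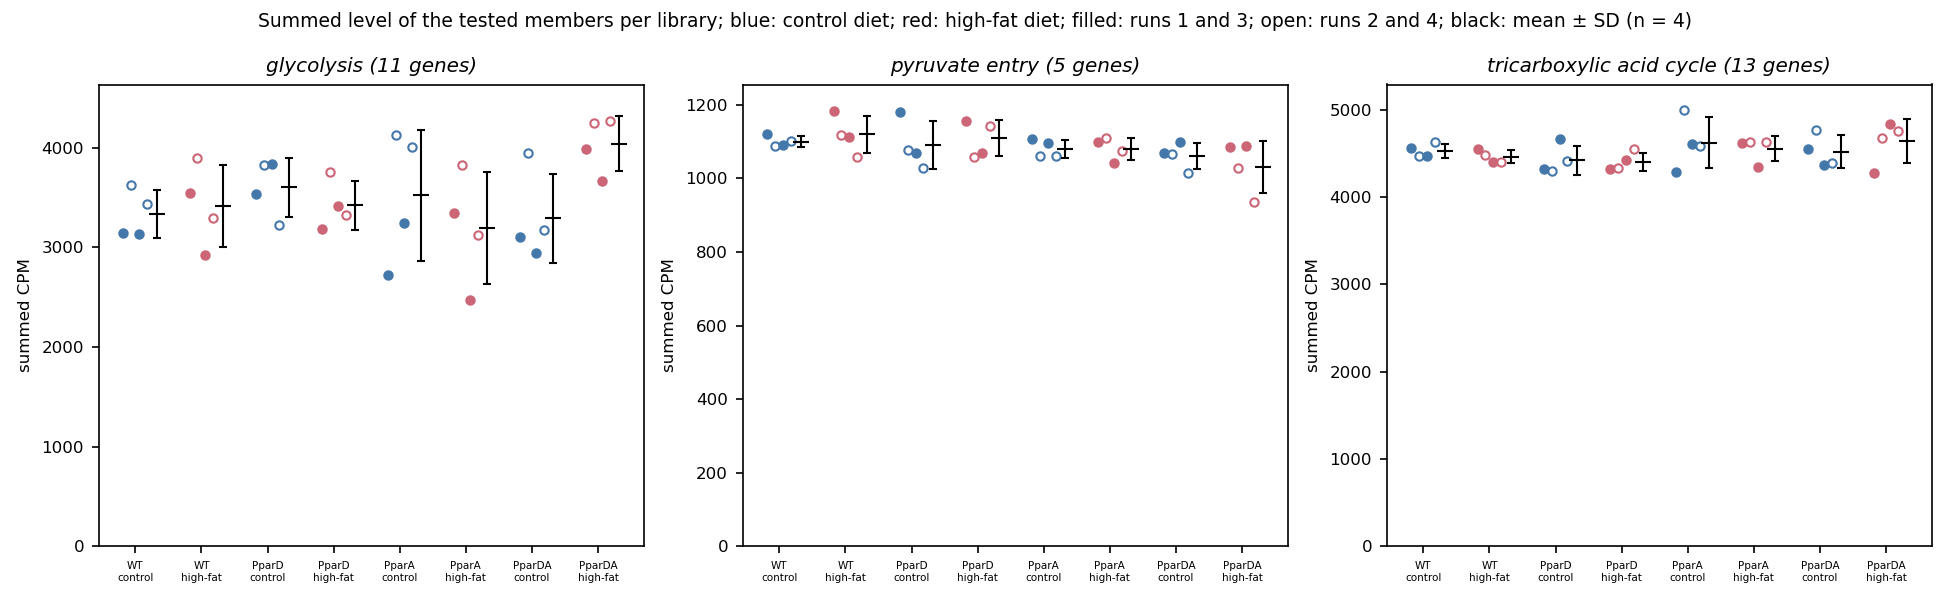
Summed level in CPM (y axis, from 0) of the tested glycolysis, pyruvate entry and TCA cycle genes in each library, by genotype and diet (x axis), with the mean ± SD of 4 libraries in black. The glycolysis sum ranged from 2470 CPM in a PparA high-fat library to 4260 CPM in a PparDA high-fat library, while the TCA cycle sum stayed between 4280 and 5000 CPM.

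The enolase step depends on how reads were shared between near-identical genes. Eno1, enolase 1, shares 974 stretches of 31 bases with the 3' end of Eno1b, an intronless copy on chromosome 18, and the table gives 1427 counts to Eno1 and 6864 to Eno1b, 82.8% of their pool. Eno1 alone averaged 61.2 and 79.8 CPM in WT, 58.7 and 45.3 CPM in PparD, 67.4 and 93.7 CPM in PparA, and 67.6 and 73.5 CPM in PparDA. In PparA the high-fat libraries split into 136, 129.7, 49.5 and 59.9 CPM, against 79.3, 80.9, 59.4 and 49.8 CPM with the control diet. This gave a log2 fold change of 0.48 ± 0.29 (edgeR adjusted p = 0.91). Pooled with Eno1b, the means were 390 and 400 CPM in WT, 389 and 364 CPM in PparD, 404 and 383 CPM in PparA, and 385 and 457 CPM in PparDA. The diet effect in PparA then became −0.08 ± 0.14 (adjusted p = 0.99), and the Ppard-fl/fl contrast went from −0.31 ± 0.15 to 0.01 ± 0.07. Directions for Eno1 alone are therefore uncertain.

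**Figure D4:**
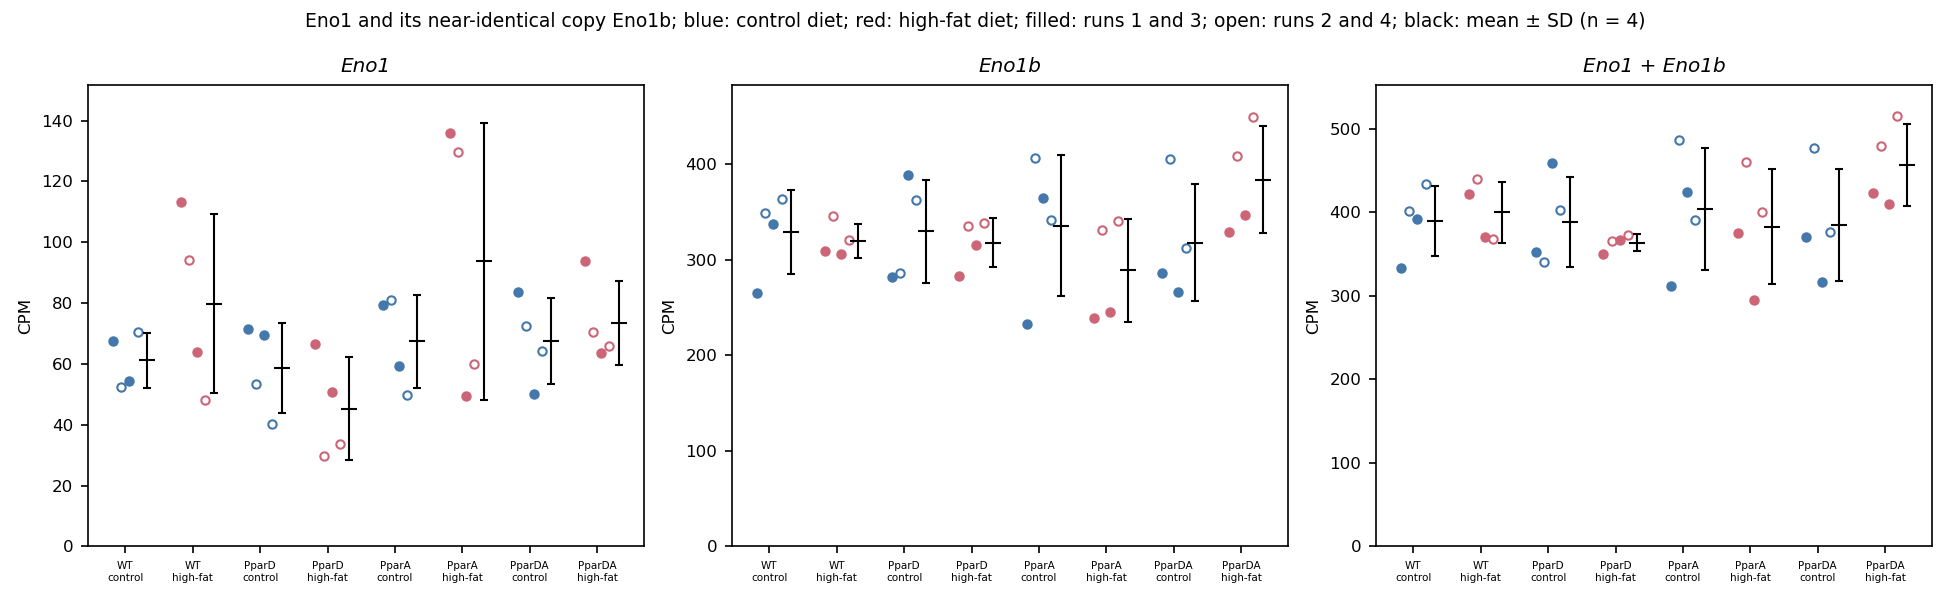
Level in CPM (y axis, from 0) of Eno1, of its copy Eno1b and of both together in each library, by genotype and diet (x axis), with the mean ± SD of 4 libraries in black. PparA on the high-fat diet averaged 93.7 CPM for Eno1 alone, its highest group mean, but 383 CPM when pooled, between the means of other groups.

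Of pyruvate entry, Pdhb was the gene that differed between genotypes. Pdhb (ENSMUSG00000021748, chromosome 14, 8165996 to 8173025) encodes the E1 beta subunit of pyruvate dehydrogenase, which commits pyruvate to acetyl-CoA. On the high-fat diet PparDA had 77.3, 46.5, 74.8 and 67.6 CPM and WT had 118, 80.4, 98.8 and 117 CPM. All 4 PparDA libraries lay below all 4 WT libraries, and library 16 was the lowest of all 32. Pdhb was the 1 of 29 members called between PparDA and WT on this diet, where 1.57% of all tested genes were called (0.937% higher and 0.63% lower). It was lower in PparDA, at −0.63 ± 0.15 (SE; 95% confidence interval −0.94 to −0.33; edgeR adjusted p = 0.017), with −0.53 in runs 1 and 3 (adjusted p = 0.37) and −0.78 in runs 2 and 4 (adjusted p = 0.21). The call was lost without library 2, 16 or 25, at adjusted p of 0.081, 0.09 and 0.073. On the control diet PparDA had 83.7, 88.9, 95.6 and 92.9 CPM and WT had 99, 83.9, 96.4 and 107 CPM, ranges that overlapped, at −0.10 ± 0.14 (adjusted p = 0.84). The diet effect within PparDA was −0.44 ± 0.15 (adjusted p = 0.38) and its difference from that in WT −0.54 ± 0.21 (adjusted p = 0.72).

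Averaged over Ppard genotype and diet, Pdhb was also lower in the Ppara-null genotypes, at a log2 fold change of −0.26 ± 0.07 (95% confidence interval −0.41 to −0.12; edgeR adjusted p = 0.019). It was −0.24 in runs 1 and 3 (adjusted p = 0.44) and −0.29 in runs 2 and 4 (adjusted p = 0.19). The PparDA high-fat libraries are part of this contrast as well. PparD averaged 105 and 94.7 CPM and PparA 85.9 and 91.8 CPM on the control and high-fat diets. Enterocyte markers on the high-fat diet summed to 3250 ± 890 CPM (SD, n = 4) in PparDA and 3110 ± 812 CPM in WT, and Paneth cell markers to 14900 ± 4210 and 21400 ± 16100 CPM. Goblet cell markers summed to 4930 ± 2030 and 5170 ± 1550 CPM. Their part in the Pdhb results was not tested.

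The other pyruvate entry genes did not pass in any of the 12 comparisons. Mpc1 and Mpc2 are the subunits of the mitochondrial pyruvate carrier. Mpc1 averaged 382 and 376 CPM in WT, 351 and 375 CPM in PparD, 392 and 425 CPM in PparA, and 356 and 355 CPM in PparDA, and Mpc2 averaged 79.7 and 77.6 CPM in WT, 83.2 and 77.8 CPM in PparD, 87.5 and 60 CPM in PparA, and 78.7 and 78.7 CPM in PparDA. In PparA, the control diet gave Mpc2 at 66.9, 103, 81.9 and 98.2 CPM and the high-fat diet at 49.3, 69.9, 57.7 and 63.2 CPM, overlapping at 1 library, with a log2 fold change of −0.55 ± 0.19 (edgeR adjusted p = 0.7). Mpc1 was −0.13 ± 0.05 in the Ppard-fl/fl contrast (adjusted p = 0.19). Pdha1, the E1 alpha subunit and partner of the Pdhb product, averaged 264 and 291 CPM in WT, 300 and 295 CPM in PparD, 279 and 257 CPM in PparA, and 292 and 288 CPM in PparDA. Its PparDA contrast with WT on the high-fat diet was −0.02 ± 0.09 (adjusted p = 0.96), next to −0.63 ± 0.15 for Pdhb. Dld, the E3 subunit that pyruvate dehydrogenase shares with the oxoglutarate dehydrogenase complex, averaged 278 and 270 CPM in WT, 250 and 264 CPM in PparD, 236 and 247 CPM in PparA, and 246 and 246 CPM in PparDA, with −0.12 ± 0.05 in the Ppara-null contrast (adjusted p = 0.12).

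Of the 13 listed TCA cycle genes, 0 passed the threshold in any of the 12 comparisons. The list leaves out aconitase and succinate dehydrogenase. Of the succinate dehydrogenase genes, described below, Sdha and Sdhd were called as lower in the Ppara-null contrast. DESeq2 called Idh3a in the Ppard-fl/fl contrast (adjusted p = 0.019) and no other of the 13 in any. The Ppard-fl/fl contrast called 0 of 29 members and 0.954% of all tested genes by edgeR, with 7 members and 12.3% of genes at an unadjusted p under 0.05. Group sums of the 13 genes were 4400 to 4640 CPM, closer together than the 3190 to 4040 CPM of the glycolysis sums. Mdh2, Idh3a, Mdh1 and Suclg1 had the most counts of the 13. The median log2 fold change of the 13 genes was 0.0122 for Ppara-null and 0.08 for Ppard-fl/fl genotypes, next to −0.00146 and 1.76e-05 over all tested genes.

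**Figure D5:**
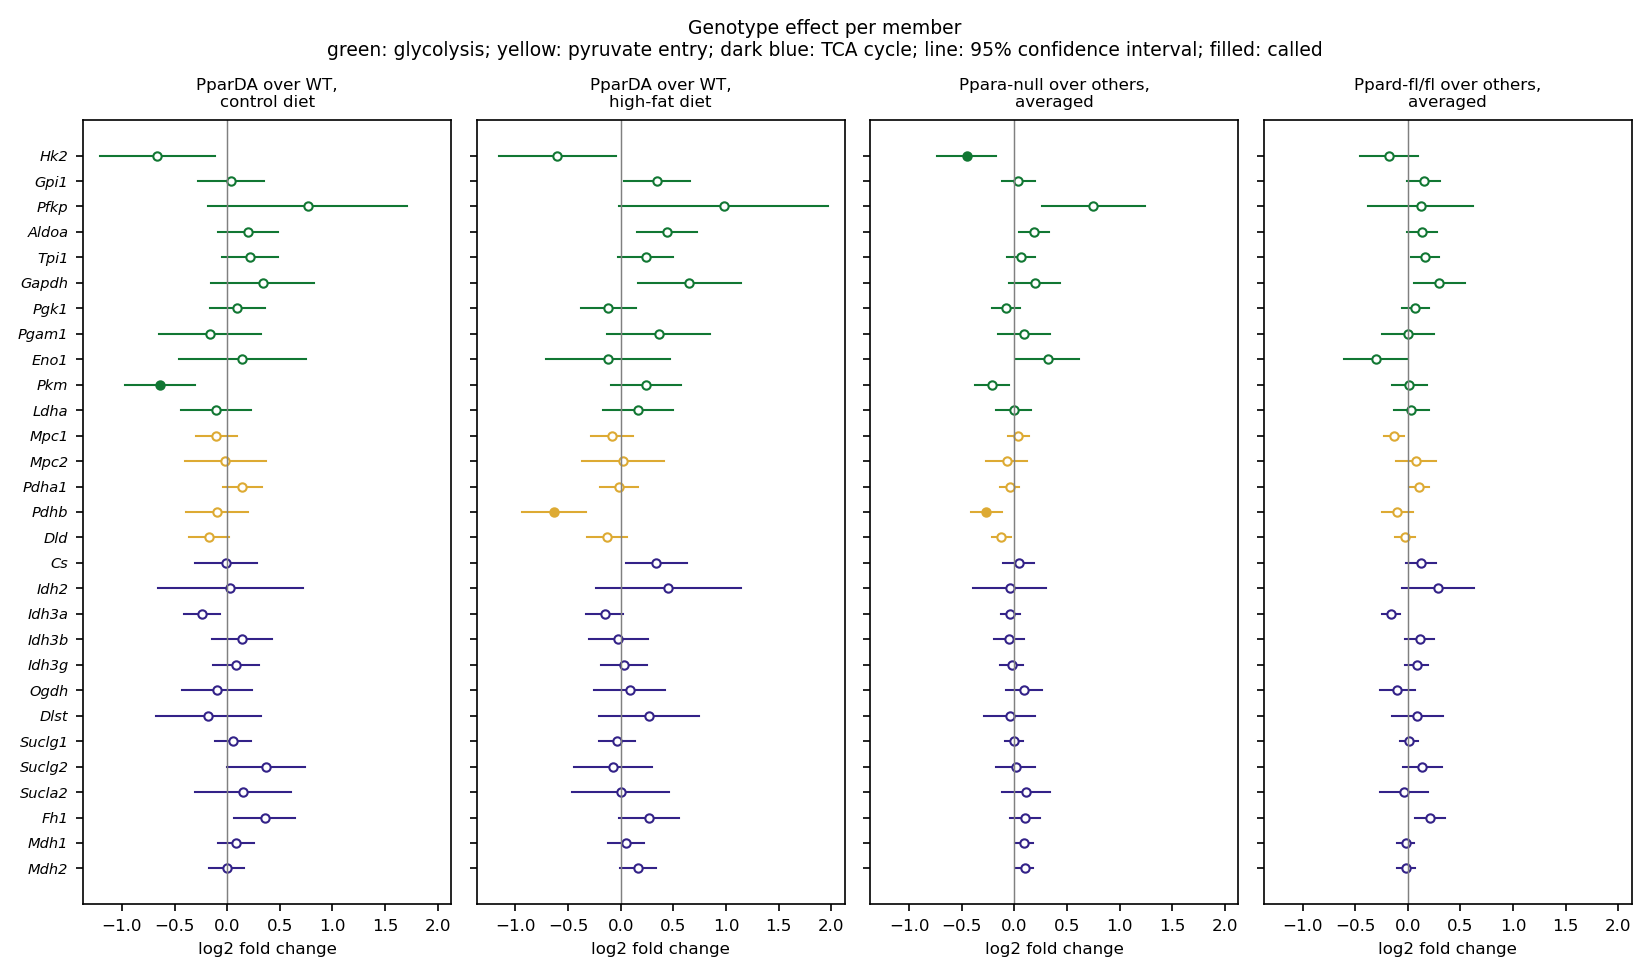
Log2 fold change (x axis) of each of the 29 tested genes (rows) in 4 genotype contrasts, 1 panel each, with 95% confidence intervals as lines and called genes filled. The filled points are Pkm on the control diet (−0.64), Pdhb on the high-fat diet (−0.63), and Hk2 (−0.45) and Pdhb (−0.26) in the Ppara-null contrast. No TCA cycle gene among the 29 is filled, and succinate dehydrogenase is not among them.

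Idh3a is the catalytic subunit of the NAD-dependent isocitrate dehydrogenase. It stood at 1011, 1030, 976 and 962 CPM in WT on the control diet, the highest group mean, while the high-fat diet gave 889, 864, 892 and 979 CPM. PparD had 891, 801, 964 and 807 CPM and 857, 835, 835 and 836 CPM, and PparDA had 959, 896, 787 and 732 CPM and 768, 879, 802 and 813 CPM. PparA, which does not carry the floxed Ppard allele, had 909, 929.9, 1015 and 803 CPM and 885, 926, 968 and 981 CPM. Ranges of Ppard-fl/fl and other genotypes overlapped, and the contrast of −0.16 ± 0.04 (SE; 95% confidence interval −0.25 to −0.07) lay just outside the threshold (edgeR adjusted p = 0.063), and inside it with the run as a block (−0.16 ± 0.04, adjusted p = 0.039). Within runs 1 and 3 it was −0.15, and in runs 2 and 4 −0.18. PparDA against WT on the control diet was −0.24 ± 0.09 (adjusted p = 0.18). The regulatory subunit Idh3b averaged 99.9 and 118 CPM in WT, 130 and 124 CPM in PparD, 115 and 112 CPM in PparA, and 110 and 116 CPM in PparDA. Idh3g, the other one, averaged 261 and 257 CPM in WT, 277 and 270 CPM in PparD, 252 and 255 CPM in PparA, and 277 and 263 CPM in PparDA. Their Ppard-fl/fl contrasts were 0.11 ± 0.07 and 0.08 ± 0.05, opposite in sign to that of Idh3a (adjusted p = 0.55 and 0.56).

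Fh1, fumarase, converts fumarate to malate. It stood at 165, 163, 156 and 198 CPM in WT on the control diet, the lowest group mean, while the high-fat diet gave 231, 234, 174 and 199.5 CPM. PparDA had 194, 274, 221 and 184 CPM and 269.8, 273, 239 and 229.6 CPM. On the control diet 2 of 4 PparDA libraries lay above all of WT and the ranges overlapped, at 0.36 ± 0.14 (edgeR adjusted p = 0.24). The Ppard-fl/fl contrast was 0.21 ± 0.07 (adjusted p = 0.16), 0.29 in runs 1 and 3 and 0.13 in runs 2 and 4. PparD averaged 215 and 233 CPM. PparA averaged 224 ± 43.8 CPM (SD, n = 4) with the control and 192 ± 23.7 CPM with the high-fat diet. The PparA diet effect minus the WT diet effect was −0.52 ± 0.20 (adjusted p = 0.51).

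The remaining cycle genes are given in the order of the reactions. Cs, citrate synthase, joins acetyl-CoA to oxaloacetate and averaged 199 and 189 CPM in WT, 207 and 201 CPM in PparD, 202 and 183 CPM in PparA, and 197 and 239 CPM in PparDA. On the high-fat diet PparDA libraries stood at 220.4, 244, 209 and 283 CPM and WT libraries at 177, 231, 169 and 181 CPM. The ranges overlapped, at 0.34 ± 0.14 (edgeR adjusted p = 0.28). Idh2, the NADP-dependent mitochondrial isocitrate dehydrogenase, had 4 to 21 counts per library and averaged 17.8 and 15.6 CPM in WT, 21 and 19.9 CPM in PparD, 19.3 and 13.4 CPM in PparA, and 18 and 21.3 CPM in PparDA. Its intervals were the widest of the cycle genes, as in 0.45 ± 0.34 between PparDA and WT on the high-fat diet (95% confidence interval −0.24 to 1.14). Ogdh and Dlst are the E1 and E2 subunits of the oxoglutarate dehydrogenase complex. Ogdh averaged 135 and 125 CPM in WT, 128 and 109 CPM in PparD, 132 and 137 CPM in PparA, and 126 and 132 CPM in PparDA. Dlst averaged 44 and 46.5 CPM in WT, 53.4 and 51.6 CPM in PparD, 53.2 and 43.1 CPM in PparA, and 38.8 and 56.2 CPM in PparDA. Dlst in PparDA stood at 44.9, 40.7, 40.7 and 28.7 CPM with the control and 69.1, 59.4, 38.2 and 58.2 CPM with the high-fat diet, with 1 high-fat library among the control values (0.53 ± 0.24, adjusted p = 0.53).

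Succinyl-CoA ligase makes succinate with a GTP or an ATP, depending on its beta subunit. Its alpha subunit Suclg1 averaged 593 and 603 CPM in WT, 576 and 617 CPM in PparD, 604 and 584 CPM in PparA, and 616 and 587 CPM in PparDA, the narrowest range of the 29 genes, with a ratio of 1.07 between the highest and the lowest group mean. The GTP-specific Suclg2 averaged 41.9 and 49 CPM in WT, 45.9 and 50.4 CPM in PparD, 48.3 and 40.3 CPM in PparA, and 54.5 and 46.5 CPM in PparDA. The ATP-specific Sucla2 averaged 47.5 and 50.4 CPM in WT, 54.9 and 44.9 CPM in PparD, 56.9 and 53.4 CPM in PparA, and 53 and 50.5 CPM in PparDA. Sucla2 had no comparison at an unadjusted p under 0.05. Suclg2 had 1, PparDA against WT on the control diet, at 0.37 ± 0.18 (95% confidence interval 0.000334 to 0.738; edgeR adjusted p = 0.36). Mdh1 and Mdh2 are the cytosolic and mitochondrial malate dehydrogenases. Mdh1 averaged 683 and 705 CPM in WT, 658 and 719 CPM in PparD, 752 and 735 CPM in PparA, and 726 and 729 CPM in PparDA. Mdh2 averaged 1240 and 1180 CPM in WT, 1190 and 1120 CPM in PparD, 1250 and 1260 CPM in PparA, and 1240 and 1330 CPM in PparDA. Their Ppara-null contrasts were 0.09 ± 0.04 and 0.10 ± 0.04 (edgeR adjusted p = 0.22 and 0.17).

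Among other genes of these pathways, from 6 lists, 5 were called in the Ppara-null contrast, in which 7.58% of all tested genes were called (4.39% higher and 3.18% lower). Of 26 further glycolysis isozymes and transporters 9 were tested, with 2 higher and 1 lower. Of 22 further TCA cycle and anaplerosis genes 18 were tested, with 0 higher and 2 lower. Whether the lists differ from that share was not tested. Khk, the ketohexokinase that makes fructose 1-phosphate, was higher by 0.42 ± 0.12 (edgeR adjusted p = 0.024), with means of 137 and 126 CPM in WT, 141 and 112 CPM in PparD, 185 and 159 CPM in PparA, and 165 and 183 CPM in PparDA. Gpd2, the mitochondrial glycerol 3-phosphate dehydrogenase, was lower, at −0.38 ± 0.11 (adjusted p = 0.034), with 76.3 and 64.7 CPM in WT, 76.4 and 66.3 CPM in PparD, 59.4 and 58.9 CPM in PparA, and 50.7 and 49.8 CPM in PparDA. The part of the enterocyte, Paneth and goblet cell markers, whose sums stand beside Hk2 above, in these results was not tested.

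The 2 TCA cycle genes lower in the same contrast encode subunits of succinate dehydrogenase, the step between the ligase and fumarase. Sdha, the flavoprotein subunit, was at −0.21 ± 0.06 (edgeR adjusted p = 0.035), with means of 401 and 450 CPM in WT, 453 and 474 CPM in PparD, 395 and 363 CPM in PparA, and 389 and 390 CPM in PparDA. Sdhd, a membrane anchor, was at −0.15 ± 0.05 (adjusted p = 0.031), with 817 and 794 CPM in WT, 844 and 792 CPM in PparD, 741 and 737 CPM in PparA, and 708 and 733 CPM in PparDA. The 2 other subunits did not pass, Sdhb, the iron-sulfur subunit, at −0.11 ± 0.06 (adjusted p = 0.35) and Sdhc, the other membrane anchor, at −0.00689 ± 0.0435 (adjusted p = 0.96). No gene was called in the Ppara-null contrast among the tested genes of the pentose phosphate pathway (6 of 7), regulators and further components of pyruvate dehydrogenase (3 of 8), gluconeogenesis (3 of 5) and regulators of glycolysis (4 of 9). The 3 tested genes around pyruvate dehydrogenase were the kinases Pdk2 and Pdk3, which inhibit the complex, and Pdhx, its E3-binding structural component. In the 11 other comparisons, the call from these lists was Stk11, the kinase LKB1, for the diet in PparD. It was lower on the high-fat diet, at −2.015 ± 0.374 (edgeR adjusted p = 0.0094). Its diet effect was −0.66 ± 0.40 in WT, −0.82 ± 0.39 in PparDA and 0.61 ± 0.39 in PparA. None of these passed (edgeR adjusted p = 0.75, 0.53 and 0.92).

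Glycolysis genes also varied with the run. The run accounted for a median of 25.6% of the variance of log2 CPM in the 11 glycolysis genes, 20.9% in the 5 of pyruvate entry, 16.1% in the 13 of the TCA cycle and 11.1% in all 5872 tested genes. The group accounted for 32.7, 39, 27.4 and 26.8%. With 8 groups and 4 runs, noise alone gives each a share, and this was not subtracted, so the shares of all tested genes are the comparison. Hk2 averaged 76.1 ± 21.8 CPM (SD, n = 16) in runs 1 and 3 and 104 ± 27 CPM in runs 2 and 4, and Gapdh 419 ± 123 and 557 ± 114 CPM. The run share was 45.9% for Ldha, 43.6% for Hk2 and 35.2% for Gapdh, against 3.71% for Pkm. Runs follow each other in library number, while Xist and Ddx3y set runs 1 and 3 apart from runs 2 and 4. Which of these the levels follow was not tested.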

How the data were processed

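Per the file headers and the labels, the files the authors deposited are expected counts per gene (54418 identifiers, 32 libraries) and a table of log2(CPM + 1) values. The expected counts are estimates that the authors had rounded to whole numbers. Salmon 1.1.0, R 4.0.2, edgeR 3.30.2 and the build mm10 are named in the submitters' processing notes. Use of molecular identifiers is not stated in the labels. The deposited log2 values served only as a check: they sum to 1e+06 CPM per library and differ from log2(CPM + 1) of the counts by at most 0.0479 for the tested members.

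Symbols came from GENCODE release M21 (54096 identifiers matched, 322 did not). Members and lists were chosen with earlier results of these data known. Aldoa matched 2 identifiers, and the one with counts was used. Genes were kept by filterByExpr (minimum count 10, minimum total 15), which left 5872 genes with 97.1 to 97.7% of the counts. TMM factors were 0.938 to 1.07. A quasi-likelihood model (edgeR 4.0.16, R 4.3.3) gave each of the 8 groups a coefficient, using all 32 libraries, and 12 contrasts were tested, two-sided, with Benjamini-Hochberg adjustment within each. The common biological coefficient of variation was 21.7%. Called means an adjusted p under 0.05. The SE is the size of the log2 fold change over the square root of F, and intervals are at 95%. Levels are means ± SD of TMM-scaled CPM.

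Named were all called members and, per comparison, the up to 3 glycolysis, 1 pyruvate entry and 3 TCA cycle members with the smallest p; group means of the other tested members were added after the values were seen. Alternatives were RLE factors, DESeq2 1.42.0, no filter, a robust prior, the run as a block, each pair of runs alone, each library left out, and, added after seeing the data, Eno1 and Gapdh pooled with near-identical copies. The procedure was tested on simulated data, with 50 genes changed at each size. For the diet effect in WT it called 0, 18, 48 and 90% of genes changed 1.25, 1.5, 2 and 4 times. For the diet effect averaged over the genotypes it called 32, 66, 88 and 96% of such genes. A result that the counts include is not reported here.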

Additional observations from a re-analysis of the deposited data

Results flagged for a closer look

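In 10 of 216 groups of 4 libraries, over 27 members, 1 library stood far from the 3 others of its group; chance flags about 1 in 20 groups. Library 12 of PparD on the high-fat diet did so in 3 genes, with Pfkp at 25.4 CPM (the others 10.2 to 10.4), Dld at 224 CPM (276 to 280) and Cs at 169 CPM (210 to 213). Library 26 of WT on the control diet did so in Pfkp at 7.34 CPM (12 to 12.4) and in Aldoa at 223 CPM (258 to 264). Pfkp was also apart in library 11 of PparD on the control diet, at 2.97 CPM (8.6 to 9.08), and rests on few counts. Idh3b was low in library 23 of PparDA on the control diet, at 84.6 CPM (118 to 121), and in library 16 of PparDA on the high-fat diet, at 91.5 CPM (123 to 125). Sucla2 was low in library 21 of PparA on the control diet, at 45 CPM (60.3 to 61.5). Idh3a was at 857 CPM in library 4 of PparD on the high-fat diet, where the 3 others lay within 835 to 836 CPM.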

How the results depend on the processing

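Counts below follow the order of the 5 diet effects (averaged, WT, PparD, PparA, PparDA), the 3 differences from WT (PparD, PparA, PparDA), PparDA against WT on the control and the high-fat diet, Ppara-null and Ppard-fl/fl. As reported, 19, 6, 5, 8, 2, 3, 9, 0, 110, 92, 445 and 56 genes were called. The replicate block gave 44, 7, 14, 18, 9, 5, 22, 4, 165, 128, 526 and 144, no filter 148, 99, 78, 106, 59, 55, 80, 71, 327, 301, 712 and 206, runs 1 and 3 alone 7, 5, 2, 4, 0, 6, 3, 2, 37, 38, 73 and 101, and runs 2 and 4 alone 3, 4, 2, 8, 0, 1, 1, 1, 57, 36, 325 and 5. DESeq2 gave 38 for the averaged diet effect, 13 in PparD, 8 and 1 for the PparD and PparDA differences and 93 for Ppard-fl/fl. The robust prior gave 11 in PparD and 13 in PparA. RLE factors and pooled copies moved no count by over 1.5 times. Leaving out 1 library gave 14 to 27, 0 to 7, 4 to 10, 5 to 14, 1 to 3, 2 to 6, 4 to 16, 0 to 2, 57 to 125, 57 to 98, 353 to 472 and 34 to 112 genes. It gave 0 to 1 members for PparDA against WT on either diet, 1 to 4 for Ppara-null and 0 to 1 for Ppard-fl/fl, and 0 in the 8 others.

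With the replicate block, 2 members were called between PparDA and WT on each diet, Hk2 (adjusted p = 0.042) beside Pkm and Gapdh (0.023) beside Pdhb, then 3 for Ppara-null with Pfkp (0.032), and 2 for Ppard-fl/fl, Gapdh (0.037) and Idh3a (0.039). Libraries of 1 run correlated at −0.0286 to 0.455 over 112 pairs, with 87 over 0.1, and 31 of 32 libraries correlated best within their run, a hint from the data and not the design. Column names carry no replicate number. Without the filter 2 were called on the control diet (Hk2 at 0.042), 1 for the PparDA difference (Pkm at 0.034) and 1 for Ppard-fl/fl (Gapdh at 0.0069); Gapdh (0.0018) replaced Pdhb (0.057) on the high-fat diet and Pfkp (0.0058) replaced Pdhb (0.11) for Ppara-null. DESeq2 and the robust prior each called 3 for Ppara-null, and DESeq2 called 1 for Ppard-fl/fl. Within either pair of runs 0 members were called between PparDA and WT or for Ppara-null, with fewer libraries, and 1 for Ppard-fl/fl in runs 1 and 3. Directions turned for Idh3a in the averaged diet effect (0.0385, runs 2 and 4), for Tpi1 and Idh2 in PparA on the high-fat diet (0.0504 and 0.232, runs 1 and 3), for Gpi1 in the PparDA difference (−0.0985, runs 1 and 3), and for Eno1 pooled with its copy (−0.0756 for the diet in PparA, 0.0115 for Ppard-fl/fl). These turns came with smaller sets of libraries or with the pooled copy, and their cause was not tested. Genes with few counts (Pfkp, Idh2) have the widest intervals.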
